A study of Caenorhabditis elegans with 4 samples.

Results

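The regions described here are the NHR-2 peaks on the X chromosome of Caenorhabditis elegans embryos, 527 of the 2299 peaks in the authors' combined list. They were taken as every peak of that list placed on X, so position alone chose them. The replicate lists held 5277 X peaks of 29379 (replicate 1) and 4005 of 24151 (replicate 2). The peaks come from chromatin immunoprecipitation followed by sequencing (ChIP-seq) with an antibody to green fluorescent protein (GFP). The strain, OP99, carries the mutation unc119(ed3) and the bombarded transgene wgIs99, which rescues it with unc119 and adds nhr-2 fused to the TY1, EGFP and FLAG tags. The transgene adds tagged NHR-2, and whether the native gene product is still present is not stated. Embryos were from a mixed population of males and hermaphrodites grown at 20 °C. Of the 4 libraries, 2 were of ChIP DNA and 2 of input DNA. The strain, stage and temperature were the same in all, and no untagged strain is among them. Nothing in the labels says that the replicates were separate cultures. Read depths are unknown.

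NHR-2 is a nuclear hormone receptor, a zinc-finger transcription factor, one of an unusually large group of such receptors in this worm, and its gene is known for expression in the early embryo. Worms have a pair of X chromosomes as hermaphrodites and a single X as males, and in hermaphrodite embryos a dosage compensation complex binds the X chromosomes and lowers their transcription. On the autosomes, genes and recombination differ strongly between the central region and the arms, whereas the X is more uniform along its length. Many binding regions of worm transcription factors lie close to gene starts, and some are shared by many factors.

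The endogenous nhr-2 gene lies on chromosome I and unc-119 on chromosome III in the RefSeq gene table of the WBcel235 assembly. No X peak is therefore at either native locus of the genes that the transgene carries. Where the transgene itself sits in the genome is not given in the sources used here. Coordinates below are on WormBase WS220 and are 1-based. A WS220 genome and annotation were not used here, so no gene, exon, intron or UTR is named for a peak and no sequence is shown.

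Each deposited peak has a score, which is capped in every list, and a peak number. In the replicate lists score fell as peak number rose, with Spearman's correlation of −0.999 among the X peaks of each. In the combined list the score orders the peaks only coarsely. Its X peaks share the ceiling up to number 1723, and among the 99 after that the score fell at 12 of the 98 moves to the next X peak and rose at the other 86. Among the strongest peaks, and within a step, the combined score thus gives no support for the order of the numbers. The combined number ran with the replicate numbers of the same X peaks, with a Spearman's correlation of 0.85 for replicate 1 and 0.83 for replicate 2. Peak number 1 is read as the strongest peak of its list on these grounds. A combined peak is given the lowest number among the replicate peaks that overlap it by at least 1 bp. Comparisons of X with the autosomes are descriptions of these lists with no test, because peaks of 1 chromosome are not replicates of each other. Binomial intervals are exact (Clopper-Pearson, 95%) and cover counting error only.

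The strongest NHR-2 peaks on X, chosen by combined number, stood high in both libraries, but none was among the very first of the series. The combined number ran with both replicate numbers, so these high ranks are no independent support. The strongest X peak was number 24 of the combined list. The 23 peaks ahead of it lay on chromosomes I (7), III (6), II (4), V (4) and IV (2). X held 15 of the first 100 combined peaks, against 21 on I, 20 on II, 16 on III, 14 on IV and 14 on V. The first 100 are 4.35% of all combined peaks. They were 2.85% of the X peaks (1.60 to 4.65%) and 4.80% of the autosomal ones (3.85 to 5.90%), so the intervals overlapped.

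The strongest X peak, X:10555393-10555794, was number 24 in the combined list, 21 in replicate 1 and 36 in replicate 2. The next, X:11797954-11798330, was number 30 in the combined list, 44 in replicate 1 and 21 in replicate 2. It stood alone, with the nearest other combined peak 112354.5 bp away from centre to centre. The third, X:9102121-9102551, was number 33 in the combined list, 19 in replicate 1 and 85 in replicate 2. No other X peak stood higher in replicate 1. The fourth, X:2793424-2793851, was number 34 in the combined list, 31 in replicate 1 and 45 in replicate 2. These 4 peaks each stood alone, with no other combined peak within 10 kb.

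The next 4 had close neighbours. X:13145961-13146293 (number 44 combined, 39 in replicate 1, 63 in replicate 2) belonged to a group of 4 peaks. X:10990587-10990906 (number 53 combined, 49 and 76 in replicates 1 and 2) belonged to a group of 3. X:4961583-4962025 was one of 2 (number 58 combined, 75 and 32 in replicates 1 and 2). X:10765981-10766394 (number 63 combined, 91 and 47 in replicates 1 and 2) was in a group of 3, and the centre of another interval lay 5 bp from its own.

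The last 4 of the 12 strongest lay outside the middle 50% of X. X:14959385-14959663 was number 68 in the combined list, 57 in replicate 1 and 108 in replicate 2. X:16770831-16771158 was number 73 in the combined list, 89 in replicate 1 and 59 in replicate 2. X:2536323-2536711 was number 82 in the combined list, 88 in replicate 1 and 91 in replicate 2, the closest match of the 12. X:16414417-16414787 was number 93 in the combined list, 138 in replicate 1 and 80 in replicate 2. All 12 were at the score ceiling of their list in both replicates (3.67 and 3.30) and in the combined list (3.54), so their order rests on the number. Their widths were 279 to 443 bp.

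**Figure D1:**
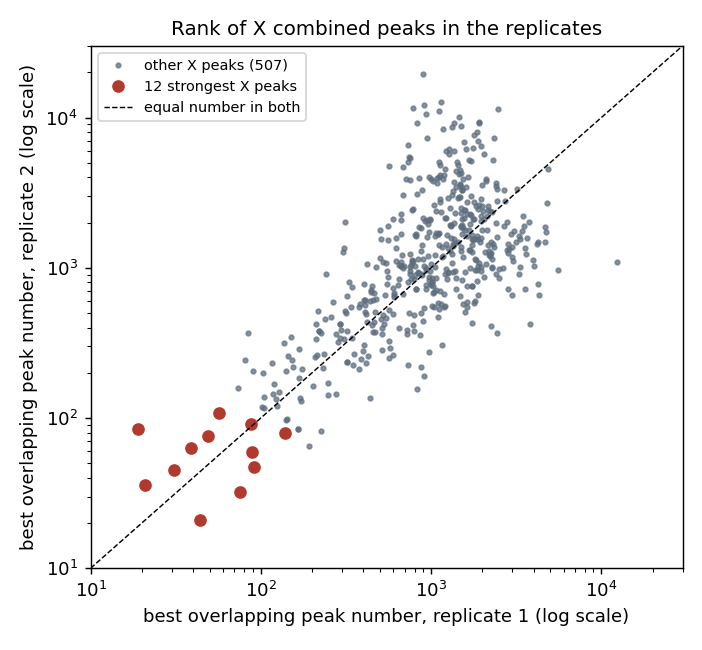
Best overlapping peak number in replicate 1 (x axis) and replicate 2 (y axis), both on log scales, for the 519 X combined peaks found in both; red circles are the 12 strongest X peaks and the dashed line marks equal numbers. The 12 strongest lie on both sides of the line, and over all X peaks more points spread above it, toward a worse rank in replicate 2, than below it.

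Nearly all X peaks were present in both libraries. The combined list is one of the same series and its source column names a reproducibility method, so the overlap describes the list and is no independent repeat. The replicate lists differ in length, so a number does not mark the same strength in both. Replicate 1 overlapped all 527 X peaks (99.8% of all combined peaks) and replicate 2 overlapped 519 of them (99.1% of all combined peaks). Both did for 519 X peaks, 98.5% (97.0 to 99.3%), against 99.0% of autosomal peaks (98.5 to 99.4%) and 98.9% of all. The share on X depended on the overlap asked for, and was 81.4% with a reciprocal overlap of 50%. That share was not computed for the autosomes, so it does not set X apart. The best number of an X peak ran from 19 to 12431 in replicate 1, with a median of 1056, and from 21 to 19537 in replicate 2, with a median of 1099. Spearman's correlation between them was 0.60 over the 519 X peaks and 0.58 over 1755 autosomal peaks, given as a description since the peaks share their libraries. The 2 numbers were within 2 times of each other for 321 of the 527 X peaks, 60.9% (56.6 to 65.1%), against 62.5% of autosomal peaks (60.2 to 64.7%) and 62.1% of all.

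X peaks had the lower number in replicate 1 more often than in replicate 2. The number was lower in replicate 1 for 309 of the 527 X peaks, counting the 8 without a match in replicate 2 as not lower, 58.6% (54.3 to 62.9%), against 49.7% of autosomal peaks (47.3 to 52.0%) and 51.7% of all. Only 2 X peaks had no match before number 5000 in replicate 1 but a later one. That is 0.38% (0.05 to 1.36%), against 2.77% of autosomal peaks (2.05 to 3.64%) and 2.22% of all. In replicate 2 there were 38 such X peaks. Their share was 7.21% (5.15 to 9.76%), against 6.09% of autosomal peaks (5.03 to 7.31%) and 6.35% of all, so the intervals overlapped. The median log10 ratio of the replicate 1 to the replicate 2 number was −0.063 on X and −0.0015 on the autosomes. The first 2299 peaks of replicate 1 included 560 on X and those of replicate 2 included 468. The part of replicate 1 in the X results was not tested beyond the values given for each list.

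The 4 X peaks whose replicate ranks differed most were each weak in replicate 1 or replicate 2, as their choice by the largest difference makes likely. X:6840735-6841184 was number 901 in replicate 1, at the score ceiling of 3.67, and number 19537 in replicate 2, at a score of 0.014. X:9939698-9940147 was number 782 in replicate 1 and 11504 in replicate 2. X:15548534-15548983 was number 912 in replicate 1 and 12183 in replicate 2. X:1068648-1069097 went the other way, with number 12431 in replicate 1 and 1092 in replicate 2. Their combined numbers were 1495, 1297, 2240 and 2291, so the first pair was at the ceiling of the combined score in spite of the weak library.

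The 8 X peaks with no overlapping peak in replicate 2 were combined numbers 887 to 2135 and were numbers 525 to 1563 in replicate 1. The lowest combined number of these was X:7520717-7521166, number 887, which was number 1563 in replicate 1. The lowest replicate 1 number, 525, belonged to X:3972281-3972730, inside one of the densest groups of X. The others were X:6051703-6052152, X:8157027-8157476, X:14862787-14863236, X:14489744-14490193, X:12053581-12054030 and X:8011028-8011477. The nearest replicate 2 peak lay 160 to 1259 bp from the edge of each. For 3 of the 8 it was the best match of another combined peak (numbers 308, 908 and 3278), and for the others it was weak (numbers 5064, 13321, 16424, 17330 and 21624).

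The share of peaks on X varied over the first 8 of 10 blocks of the combined list with overlapping intervals, and was lowest at the weak end. X held 22.9% of all combined peaks, and makes up 17.7% of the nuclear length up to the last deposited peak of each chromosome. In 10 successive blocks of up to 230 peaks by number, the share on X was 21.7% (16.6 to 27.6%, 50 of 230 peaks) in the first. It was 20.9% (15.8 to 26.7%) in the third, 28.7% (22.9 to 35.0%) in the fourth, 29.1% (23.3 to 35.5%) in the fifth and 21.7% in the sixth. It was 17.4% (12.7 to 22.9%) in the ninth block and 15.7% (11.3 to 21.1%) in the last, close to the share by length. Peaks numbered 1 to 1840 thus lay on X in 24.5% of cases and later ones in 16.6%. This cut was chosen after the block values were seen. By score, 428 X peaks were at the ceiling, 81.2% (77.6 to 84.5%), against 73.9% of autosomal peaks (71.8 to 75.9%) and 75.6% of all. The ceiling takes in combined numbers up to 1737, so this is another cut of the same ranking and no separate support. The other 99 X peaks had scores down to 2.15.

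**Figure D2:**
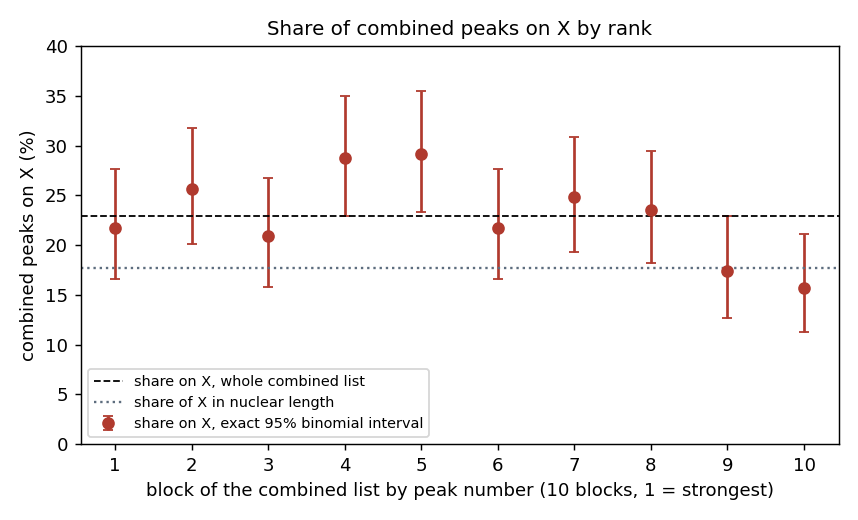
Share of combined peaks on X (y axis, %) in 10 successive blocks of the combined list by peak number (x axis, the strongest first), with exact 95% binomial intervals. The share lies between 20.9 and 29.1% in the first 8 blocks and is 17.4 and 15.7% in the last 2, near the dotted line of the X share by length (17.7%); the dashed line is the share over the whole list (22.9%).

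Peak width followed rank on X. Most X peaks (379) had the fixed width of 450 bp, 144 were narrower and 4 wider, over a range of 112 to 633 bp. Of the 4 wider ones, numbers 252 and 519 were the same interval, and so were numbers 256 and 410. Together 148 X peaks departed from the fixed width, 28.1% (24.3 to 32.1%), against 27.9% of autosomal peaks and 28.0% of all. Narrow X peaks had a median number of 325.5 and those of fixed width 1371. Of the 53 strongest X peaks, all departed from 450 bp and all were at the score ceiling in both replicates. Of all 527 X peaks, 471 were at the ceiling in replicate 1, 89.4% (86.4 to 91.9%), against 82.4% of autosomal peaks (80.5 to 84.1%) and 84.0% of all. In replicate 2 the ceiling held 230 X peaks, 43.6% (39.4 to 48.0%), against 43.4% of autosomal peaks (41.1 to 45.7%) and 43.5% of all. Fewer peaks are at the ceiling anywhere in the replicate 2 list, with 230 on X and 750 on the autosomes, than in that of replicate 1, with 568 and 1768.

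X carried 29.7 combined peaks per Mb, more than any autosome (27.4 on III, 26.8 on I, 24.7 on II, 17.7 on IV and 14.5 on V). This first place held for the first 2299 peaks of replicate 1 (31.6 per Mb) and not for those of replicate 2, where X had 26.4, III 28.7 and I 27.8 per Mb. Along X, the peaks did not gather in the centre. Cut into 4 equal parts from left to right, X held 142, 135, 127 and 123 combined peaks. The same parts held 148, 147, 139 and 126 of the first 2299 peaks of replicate 1, and 136, 116, 106 and 110 of those of replicate 2. The leftmost part was the fullest in all 3 lists. Cut into 10 equal parts, X had its fullest from 1.77 to 3.54 Mb, which held 78 peaks in the combined list, 79 among the first 2299 of replicate 1 and 67 among those of replicate 2. The leftmost and rightmost of the 10 parts held 39 each in the combined list.

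The densest 500 kb bin was X:10500001-11000000, with 30 combined peaks and with 33 and 27 of the first 2299 of replicates 1 and 2. This bin also held the strongest X peak and 2 others of the 12 strongest. The next were X:2500001-3000000 with 27 combined peaks (30 in replicate 1 and 27 in replicate 2) and X:14500001-15000000 with 27 (25 and 17). X:4500001-5000000 held 25 combined peaks (28 and 21). The emptiest full bin was X:16000001-16500000, with 5 combined peaks and 9 in each replicate, and one of its 5 peaks was among the 12 strongest of X. X:1-500000 held 6 combined peaks (5 and 7 in replicates 1 and 2). X:10000001-10500000 held 8 (12 and 8), directly beside the densest bin. X:11500001-12000000 also held 8 (11 and 8), although the second strongest X peak lies there. Another pair of bins tied with these at 8 combined peaks, X:15000001-15500000 (8 in replicate 1 and 9 in replicate 2) and X:15500001-16000000 (7 and 8). The latter adjoins the emptiest bin and the former adjoins the latter, so the combined list was sparse from 15000001 to 16500000. In the first 2299 peaks the emptiest full bins were others, X:1-500000 in replicate 1 (5) and X:8000001-8500000 in replicate 2 (5). The full replicate lists held 172 and 132 peaks in X:16000001-16500000, against 149 and 114 in the densest bin.

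Over the 35 full bins the counts of the replicates' first 2299 peaks ran together, with a Spearman's correlation of 0.79 and a Pearson's r of 0.85. The full replicate lists, mostly weak peaks, ran together as well (Spearman's correlation 0.78, Pearson's r 0.87). Between the combined list and the full lists the relation was looser, with a Spearman's correlation of 0.51 for replicate 1 and 0.43 for replicate 2. These are descriptions over bins that share libraries. The variance of the bin counts was 2.78 times their mean on X, against 2.83 on I, 3.45 on II, 1.76 on III, 2.19 on IV and 4.66 on V. X was thus uneven to about the degree of I, and more so than III.

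**Figure D3:**
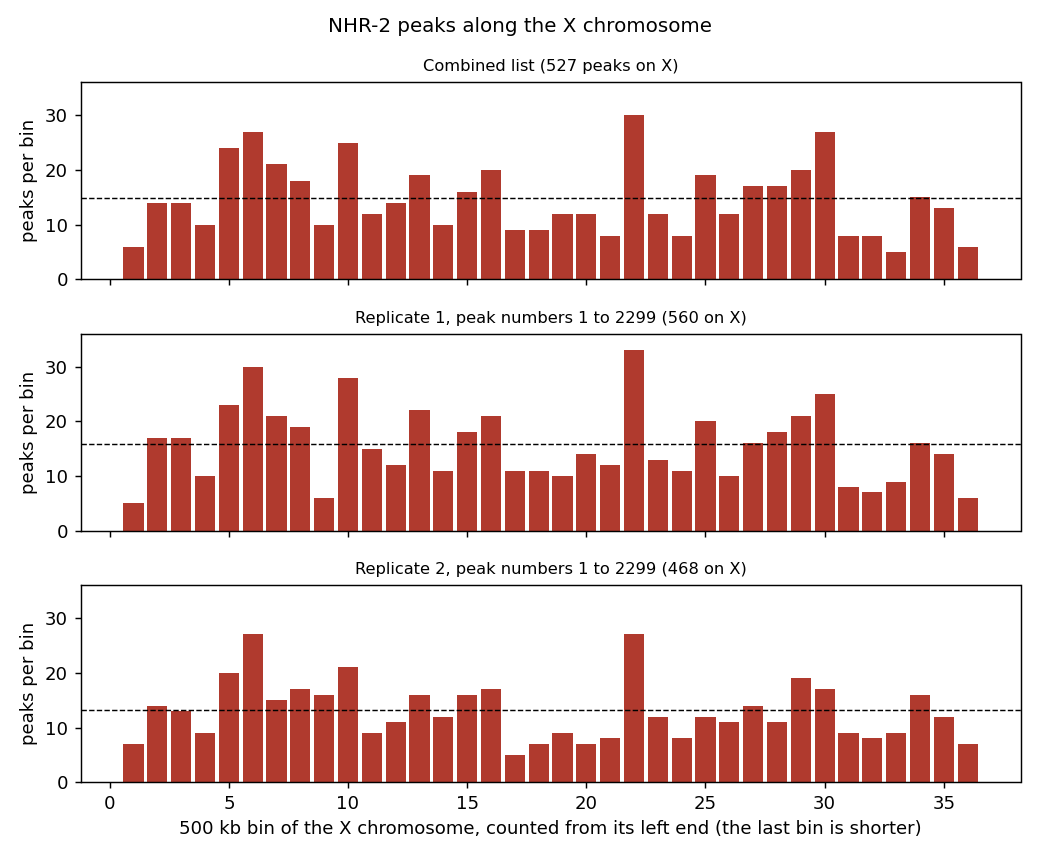
Number of peaks (y axis) in each 500 kb bin along X from its left end (x axis) in the combined list and in the first 2299 peaks of each replicate; dashed lines are the means over full bins. Bins 6 and 22 are among the 3 fullest in all 3 lists, with 27 and 30 combined peaks.

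The leftmost part of X was free of combined peaks. The first combined peak began at 352970, against 1274 to 51210 on the autosomes. Before it the replicate lists held 30 peaks (replicate 1) and 23 peaks (replicate 2), of which the strongest were numbers 3780 and 3458, and 12 in each list overlapped a peak of the other. That is 85.0 and 65.2 peaks per Mb, below the 263 and 190 per Mb that peaks outside the combined list reached over X as a whole. This end was singled out after its values were seen.

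In the combined list a smaller share of X than of any autosome lay in long stretches between peaks. Stretches over 100 kb with no combined peak numbered 41 and made up 31.8% of X, against 42.3% of III, 46.8% of II, 51.5% of I, 62.2% of IV and 74.6% of V, not counting chromosome ends. In the first 2299 peaks of replicate 1 the values were 29.3% on X and 44.3% on III. In those of replicate 2 they were 33.3% on X and 31.9% on III, so the order of X and III turned round there. The longest stretch was 228825 bp on X and 223247 bp on III, against 389182 bp on II, 475183 bp on I, 581171 bp on IV and 1565226 bp on V.

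None of the 41 long stretches of X was free of replicate peaks. They held at least 15 replicate 1 and at least 7 replicate 2 peaks each, 1334 and 950 in all. Peaks outside the combined list were less dense in these stretches than in the remainder of X, with 237 against 274 per Mb in replicate 1 and 169 against 199 per Mb in replicate 2. The longest, X:1627295-1856119, held 43 replicate 1 peaks, of which the strongest was number 2533, and 35 replicate 2 peaks, of which the strongest was number 3354. X:9596059-9822532 (226474 bp) held 44 and 39, with the strongest at numbers 1708 and 2845. X:15931435-16147696 (216262 bp) held 63 and 51, the most of the 6 longest, with the strongest at 1417 and 2914.

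The fourth longest, X:4255213-4462296 (207084 bp), held 47 peaks in replicate 1 and 33 in replicate 2, with the strongest at numbers 2417 and 1530. Here replicate 2 had 3 peaks within its first 2299 and replicate 1 had 0. X:9230630-9401910 (171281 bp) held 28 and 24, with the strongest at 2643 and 1528. X:6897280-7067469 (170190 bp) held 47 and 33, with the strongest at 1930 and 1772. Over all 41 stretches, 19 of 1334 replicate 1 and 22 of 950 replicate 2 peaks were within the first 2299 of their list. Among all X peaks outside the combined list it was 89 of 4651 in replicate 1 and 60 of 3359 in replicate 2. The shares in the stretches were thus close to those over X.

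**Figure D4:**
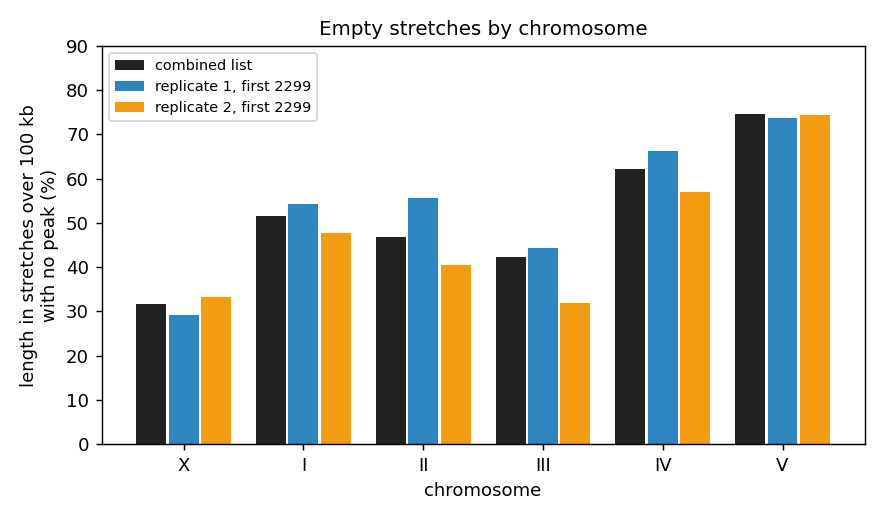
Share of each chromosome's length (y axis, %) in stretches over 100 kb between neighbouring peaks, for the combined list and the first 2299 peaks of each replicate. X has the smallest share in the combined list (31.8%) and in replicate 1 (29.3%), while in replicate 2 chromosome III (31.9%) is below X (33.3%).

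The fullest groups on X held fewer peaks than those of any autosome, and a smaller share of X peaks than of autosomal peaks was in groups of at least 3. Chains of peaks with steps of up to 10 kb between centres gave 318 groups, counting single peaks, of which 205 were single, 66 were pairs and 47 held at least 3 peaks. The largest groups on X held 7 peaks, against 8 on III, 10 on I and IV, 11 on II and 12 on V. X peaks in groups of at least 3 numbered 190, 36.1% (31.9 to 40.3%), against 42.6% of autosomal peaks (40.2 to 44.9%) and 41.1% of all. A neighbour within 2 kb was found for 150 X peaks, 28.5% (24.6 to 32.5%), against 33.1% of autosomal peaks (30.9 to 35.4%) and 32.1% of all. On both measures the intervals of X and the autosomes overlapped. They are also too narrow, because peaks of a group or pair are counted together and are not independent. In the first 2299 peaks the shares in groups of at least 3 were 39.5% on X and 44.2% on the autosomes in replicate 1, and 32.3% and 37.9% in replicate 2. The share with a neighbour within 2 kb was 31.1% on X and 35.8% on the autosomes in replicate 1, and 26.7% and 27.9% in replicate 2, where the difference was small.

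Single peaks on X ranked only a little below grouped ones. Single X peaks numbered 205, 38.9% (34.7 to 43.2%), against 36.3% of autosomal peaks (34.1 to 38.6%) and 36.9% of all. Their median combined number was 1134, and that of X peaks in groups of at least 3 was 961. On the autosomes the medians were 1435 for single peaks and 915.5 for peaks in groups, so the gap between single and grouped peaks was wider there. Of the 53 strongest X peaks 16 were single and 22 were in groups of at least 3, and of the 53 weakest 22 were single and 16 in such groups.

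The 4 groups of 7 X peaks each spanned a wide range of ranks. X:12082235-12106360 (24126 bp) had its strongest member at number 187 (152 in replicate 1 and 245 in replicate 2) and its weakest at 2111. X:10501296-10520348 (19053 bp), in the densest bin, ran from number 292 to 2052, and all 7 members were matched within the first 2299 of replicate 1 and 6 within those of replicate 2. X:3970894-3981967 (11074 bp) ran from number 311 to 1673. Peaks 1116 and 1673 overlap in it, which leaves 6 separate regions, and it holds the peak 3972281-3972730 that had no counterpart in replicate 2. X:2700565-2713444 (12880 bp) ran from number 394 to 2205. None of these 4 groups held one of the 12 strongest X peaks.

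There were 3 groups of 6. The first, X:3309695-3320436 (10742 bp) had members at numbers 156, 300, 342, 1048, 1411 and 2155. Peaks 300 and 2155 overlap and had the same best peak in each replicate, which leaves 5 separate regions. The member at 156, X:3310691-3311022, was number 117 in replicate 1 and 233 in replicate 2. X:14181911-14203566 (21656 bp) had its strongest member at 262 (211 in replicate 1 and 424 in replicate 2), and all 6 members were within the first 2299 of both replicates. The third, X:4797729-4817331 (19603 bp), ran from number 419 (379 in replicate 1 and 550 in replicate 2) to 1553. Neighbours within 10 kb of each other on X were a median of 2599 bp apart over 209 pairs.

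Some of this closeness comes from intervals that overlap. On X 11 pairs of combined peaks overlapped, leaving 516 separate regions of 527 peaks. This was not particular to X. Merging left 397 of 404 on I, 367 of 377 on II, 368 of 378 on III, 303 of 309 on IV and 297 of 304 on V. In 10 of the 11 X pairs, both members had the same best peak in each replicate, and in 4 the centres were within 5 bp. Peak 82 (X:2536323-2536711), for example, shared its centre with peak 1874, so this pair is 1 place counted 2 times. With overlapping peaks merged, the share of X regions in groups of at least 3 was 35.3% and that of autosomal regions 40.8%.

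Most X peaks of the replicate lists were weak and lay outside the combined list. In replicate 1, 4651 of 5277 X peaks overlapped no combined peak, and in replicate 2, 3359 of 4005. Of all X peaks in replicate 2, 2155 overlapped a replicate 1 peak, 53.8% (51.9% over all nuclear peaks), and of those in replicate 1, 2163 overlapped a replicate 2 peak, 41.0% (42.3% over all nuclear peaks). The X peaks that overlapped a combined peak were 11.9% in replicate 1 (9.29% over all nuclear peaks of that list) and 16.1% in replicate 2 (11.8% over all nuclear peaks). The corresponding autosomal shares were 8.72% and 10.9%. The median score of all X peaks was 0.297 in replicate 1 and 0.077 in replicate 2, against 0.244 and 0.065 on the autosomes.

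A part of the weak X peaks overlapped between libraries, at shares no higher than over all nuclear peaks. Of the X peaks outside the combined list, 1548 of replicate 1 (33.3%, against 37.2% on the autosomes and 36.5% over all nuclear peaks) overlapped a replicate 2 peak. In the other direction it was 1510 of replicate 2 (45.0%, against 45.6% on the autosomes and 45.5% over all nuclear peaks). With a reciprocal overlap of 50% these counts were 1084 for replicate 1 and 1056 for replicate 2, and they were not computed for the autosomes. How much overlap such dense lists reach by position alone was not tested. Of the 1548, 2 were within the first 2299 of both lists (0.13%, against 0.24% of such autosomal peaks) and 104 within the first 5000 of both (6.72%, against 5.21%). The part of the making of the combined list in these shares was not tested.

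The strongest X peaks of a single list that were left out stood at numbers 809 and beyond. In replicate 1, X:12172543-12172681 was number 816, at the score ceiling, with no replicate 2 peak, and lay 611 bp from the centre of a combined peak. X:4647010-4647409 was number 981 in replicate 1 and 13518 in replicate 2. X:11415155-11415554 was number 1108 in replicate 1 and 2364 in replicate 2, and X:5429283-5429682 was number 1220 in replicate 1 with no peak in replicate 2. These last 3 were 30103 to 45115 bp from a combined peak.

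In replicate 2, X:7193716-7194185 was number 809, at the score ceiling, with no replicate 1 peak. X:2581549-2582018 was number 867 in replicate 2 and 6815 in replicate 1. X:13225465-13225934 was number 1034 in replicate 2 with no peak in replicate 1, and X:10391353-10391822 was number 1158 in replicate 2 and 4673 in replicate 1. They lay 1233 to 10851 bp from the nearest combined peak.

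Weak X peaks were densest close to the combined ones. Between 1 and 2 kb from a combined peak centre on X, replicate 1 had 423 such peaks per Mb and replicate 2 had 315, against 472 and 331 around autosomal peaks. Beyond 50 kb the density was 172 and 141 per Mb on X, against 216 and 184 on the autosomes. The X value takes in most of the end before the first combined peak at 352970. That end held 85.0 and 65.2 peaks per Mb in replicates 1 and 2, and its part in the difference was not tested. The share of these weak X peaks that the other library also held was 44.4% (replicate 1) and 57.5% (replicate 2) at 1 to 2 kb, and 29.9% and 35.6% beyond 50 kb. On the autosomes these shares were 43.8% and 60.6% at 1 to 2 kb, and 34.2% and 40.3% beyond 50 kb. Within 1 kb the density is low by construction, because peaks that overlap a combined peak were removed.

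**Figure D5:**
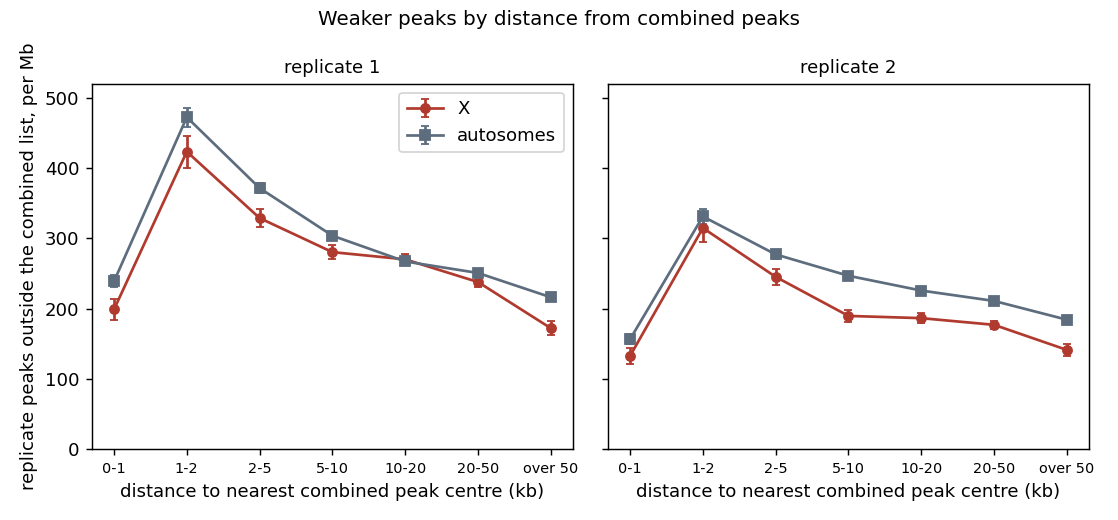
Replicate peaks outside the combined list per Mb of territory (y axis) by distance from the nearest combined peak centre (x axis, kb), for X (circles) and the autosomes (squares) in each replicate; bars are the square root of the count, counting error only. On X the density is highest at 1 to 2 kb, at 423 and 315 per Mb in replicates 1 and 2, and is 172 and 141 per Mb beyond 50 kb.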

How the data were processed

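The values are peak lists, 1 for each of the 2 ChIP libraries and 1 combined list. Peaks carry a score and a peak number deposited by the authors. Per the file headers, coordinates are on WormBase WS220. The source column names SPP with the irreproducible discovery rate, which keeps peaks of like rank in replicates. Aligner, versions, thresholds, the use of the input and the making of the combined list are not stated in these sources. Scores were compared only within a list. Overlap was at least 1 bp. Groups joined centres up to 10 kb apart, bins were 500 kb, and chromosome length ran to the last deposited peak of any list. Mitochondrial peaks were left out. Weaker peaks were counted per Mb of territory, sampled every 100 bp. Interval counts were tested on simulated data and matched bedtools 2.31.1 in 60 of 60 comparisons. Counting used Python 3.11.15 with pandas 2.3.3 and numpy 2.4.6, intervals scipy 1.17.1 and plots matplotlib 3.10.9. No test was planned: each library gives a rank and a capped score per peak on a scale of its own list, and there is 1 group of 2 ChIP libraries.

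Named regions were the 12 X peaks of lowest number, the 6 X groups of most peaks (ties by lowest number; a tied seventh was added after its values were seen), the 6 longest empty stretches, the 4 fullest and 4 emptiest bins (ties by position; 2 tied bins were added likewise), the 4 strongest X peaks of each replicate outside the combined list, X peaks absent from a replicate and the 4 with the most unlike ranks. The members and these rules were chosen with earlier results of these data known.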

Additional observations from a re-analysis of the deposited data

How the results depend on the processing

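To leave out 1 replicate, the first 2299 peaks of the other, less mitochondrial ones, replaced the combined list. The share of peaks on X, 22.9% as reported, then ran from 20.5% (replicate 2 list) to 24.5% (replicate 1 list), and the density, 29.7 per Mb, from 26.4 to 31.6. The other ranges were 47.4 to 51.1% of X peaks in the middle 50% of X, 54.0 to 66.0 peaks per Mb in the densest bin, 296 to 326 groups, 40 to 54 groups of at least 3, and 36 to 41 stretches over 100 kb. The stronger 50% of the combined list gave 25.2% on X and, with fewer peaks by construction, 16.4 per Mb. A reciprocal overlap of 50% lowered the share of X peaks seen in both replicates to 81.4%; the intervals of the lists differ in width, and the cause was not tested. Centres within 200 bp, other bin widths and group spacings, merged peaks and other lengths stayed within the counting interval of the reported value or within 1.5 times a count. No paired analysis was possible because only the ChIP libraries have a peak list each, so no pair of groups shares numbers. With depth unknown, absence from a list does not mean that NHR-2 was absent.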
